A study of Homo sapiens with 5 samples.

Results

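These regions are the H3K9me3 peaks that one deposited peak list holds and the other 2 lists of the study lack. The study mapped trimethylation of histone H3 at lysine 9 (H3K9me3) by ChIP-seq, which sequences the DNA that an antibody against the mark brings down. The cells were HEK293T, an established line derived from human embryonic kidney. The labels give 5 samples with 1 library each: H3K9me3 libraries of genotype WT, EV and KD, and input libraries of WT and EV. EV commonly stands for empty vector, though the labels do not spell it out. KD refers to cells that the design text names KCNQ1OT1_K KD. The sources used here do not say how the knockdown was made, or whether the cells were a clone or a pool. Peak lists carry EV and KD in 2 of the 3 names. In the other one, neither the name nor the peak names state a genotype, so it is called the unlabelled list and was assigned to no sample. A member is a peak of the unlabelled list on chromosomes 1 to 22 that shares no base with any EV or KD peak. Of the 13242 peaks of that list on these chromosomes, 6061 are members (45.8%, exact Clopper-Pearson 95% interval 44.9 to 46.6). The 3 lists together hold 48568 peaks there.

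The members were chosen by lack of overlap with the EV and KD peaks, so their number is a description with no test. By the same definition, 12826 of 23245 EV peaks (55.2%) and 1303 of 12081 KD peaks (10.8%) were found in no other list. With 1 list per group there is no replicate check, and intervals cover counting error over peaks only. The lists hold no read counts, so the depth is unknown. A peak that one list lacks can lie just under that list's calling threshold, and a more shallowly sequenced library lists fewer peaks.

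H3K9me3 marks silenced chromatin. It is placed by enzymes such as SETDB1 and the SUV39H proteins and is bound by heterochromatin protein 1. In human cells it lies mainly over the satellite repeats of centromeres, over transposable elements and over clusters of zinc finger genes, where KRAB zinc finger proteins bring in SETDB1 through the corepressor TRIM28.

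Few members lay at the start of a gene, and the sequences of 4 such starts are shown because they carry very different numbers of CG dinucleotides, the sites of DNA methylation. RefSeq promoter windows run from 250 bases before to 50 after a start (GRCh38.p14). They are printed 5′ to 3′ on the gene's strand with every CG in capitals, and each of the 4 windows lies wholly inside a member. The first belongs to FANK1, a gene known for expression in testis, and the next to ZNF273, a zinc finger gene. The others belong to GRM6, the glutamate receptor of retinal bipolar cells, and DPPA5, a gene of pluripotent cells.
FANK1, chr10:125896314-125896613, plus strand: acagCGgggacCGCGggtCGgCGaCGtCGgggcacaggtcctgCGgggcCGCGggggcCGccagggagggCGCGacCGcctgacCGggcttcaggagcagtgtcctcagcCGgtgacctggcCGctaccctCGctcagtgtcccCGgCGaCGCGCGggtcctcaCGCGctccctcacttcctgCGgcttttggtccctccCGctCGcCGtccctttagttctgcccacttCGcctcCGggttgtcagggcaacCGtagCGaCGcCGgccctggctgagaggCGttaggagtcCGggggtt
ZNF273, chr7:64877353-64877652, plus strand: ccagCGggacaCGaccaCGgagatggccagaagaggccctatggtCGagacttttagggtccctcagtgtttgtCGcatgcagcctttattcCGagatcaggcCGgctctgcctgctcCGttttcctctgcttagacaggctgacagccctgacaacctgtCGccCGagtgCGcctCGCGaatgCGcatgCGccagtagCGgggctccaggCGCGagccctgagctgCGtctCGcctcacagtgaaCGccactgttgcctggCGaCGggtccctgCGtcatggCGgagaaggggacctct
GRM6, chr5:178995271-178995570, minus strand: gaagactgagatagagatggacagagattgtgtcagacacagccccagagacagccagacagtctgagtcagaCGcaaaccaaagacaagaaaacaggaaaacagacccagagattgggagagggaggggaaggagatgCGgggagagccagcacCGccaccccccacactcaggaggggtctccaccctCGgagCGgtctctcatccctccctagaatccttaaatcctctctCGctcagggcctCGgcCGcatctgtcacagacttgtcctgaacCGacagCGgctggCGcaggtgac
DPPA5, chr6:73354227-73354526, minus strand: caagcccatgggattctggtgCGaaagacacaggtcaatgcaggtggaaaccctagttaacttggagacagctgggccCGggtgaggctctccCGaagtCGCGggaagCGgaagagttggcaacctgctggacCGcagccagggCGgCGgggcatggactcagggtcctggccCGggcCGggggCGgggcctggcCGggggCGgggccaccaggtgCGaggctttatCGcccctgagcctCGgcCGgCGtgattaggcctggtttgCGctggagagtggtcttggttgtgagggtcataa

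The FANK1 window holds 37 CG, that of ZNF273 holds 25, that of DPPA5 20 and that of GRM6 11. CG was searched as these letters, which read the same on both strands, and 96.0% of all promoter windows hold at least 1. The median was 14 over all 33725 windows and 8 over the 39 windows that a member overlaps (0.116% of all). At least 15 CG were found in 15 of these 39, against 49.0% of all windows. The windows overlapped by EV peaks had a median of 22 and those overlapped by KD peaks 26. Those overlapped by peaks of the unlabelled list with a partner had 17. For protein-coding genes alone, the median was 21 over all windows and 14 over the 15 that a member overlaps. Some of the 39 windows overlap each other at the same gene, as at FANK1. The unlabelled list as a whole overlapped 0.362% of the windows, the EV list 1.67% and the KD list 1.06%. The windows lie on 21 of the 22 chromosomes, and chromosome 8 was not analysed in this step.

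The member over the start of FANK1 spans chr10:125895908-125896674 and is 3.99-fold enriched over the peak caller's background. Its −log10 p, the caller's measure of strength, is 4.84. Its nearest EV peak lies 191 kb away and its nearest KD peak 246 kb away, so this start is isolated from the peaks of both other lists. At ZNF273 the member has a −log10 p of 3.97 and the nearest EV peak is 4.67 kb away. The member at GRM6 has a −log10 p of 4.03 and lies between close neighbours, 0.237 kb from an EV peak and 0.345 kb from a KD peak. That of DPPA5 has a −log10 p of 3.45, near the lower limit of the list. The 39 windows include 15 of protein-coding genes. Among these are ZNF558, ZNF433 and ZNF534 on chromosome 19, DMRT2, a developmental transcription factor gene, and TPTE, a testis gene near the centromere of chromosome 21.

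Of the members on these 21 chromosomes, 34 of 5848 (0.581%, interval 0.403 to 0.812) touched a promoter window. The share was 1.47% (1.27 to 1.698) for peaks found only in EV and 6.01% (4.76 to 7.46) for peaks found only in KD. The median distance from a member to the nearest start was 82.9 kb. For peaks found only in EV it was 34.03 kb and for those found only in KD 32.02 kb. Peaks of the members' own list with a partner lay much farther from starts, at a median of 1010 kb, and all KD peaks at 281 kb. Of the list's peaks with a partner 0.860% (0.655 to 1.11) touched a window, and of the whole list 0.732%, near the share of members. In distance, members thus stood between the partner peaks of their list and the peaks found only in EV or only in KD.

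Members also covered 2 microRNA genes, and their mature sequences are given from RefSeq with the seed, bases 2 to 8, in capitals because the seed selects the targets of a microRNA. The sequences share no seed. The share of all microRNA genes that this makes is not given here, so the count of 2 is a description only.
hsa-miR-1283, chr19:53758245-53758266, plus strand: uCUACAAAggaaagcgcuuucu
hsa-miR-1324, chr3:75630823-75630846, plus strand: cCAGACAGaauucuaugcacuuuc
MIR1283-2 belongs to the large primate microRNA cluster of chromosome 19, which is known for expression in placenta. Its member, of 1299 bp, has a −log10 p of 3.45 and lies 2.101 kb from the nearest EV peak and 109 kb from the nearest KD peak. The fold enrichment and −log10 p of this member are a pair of values that 551 members share. The member over MIR1324 is 746 bp wide, with a −log10 p of 3.38 and gaps of 10.6 kb to EV and 10.4 kb to KD.

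Members were mostly weak and narrow peaks of their list. Their −log10 p ran from 3.22 to 31.04 with a median of 3.83, and the quartiles were 3.504 and 4.34. Peaks of the same list with partners in both EV and KD had a median of 5.61, and those with a partner in EV alone 4.25. The median width was 753 bp for members, 1208 bp with an EV partner alone and 2474 bp with both partners. Median fold enrichment was closer together, at 3.29 for members, 3.35 and 3.60. Members make up 45.8% of the peaks but 19.8% of the covered length, 5.605 of 28.3 Mb. The share of the list without a partner was 77.9% (76.01 to 79.8) below a −log10 p of 3.5. It was 45.8% between 4 and 5, 13.6% between 6 and 8, and 6.82% (3.16 to 12.5) at 20 or more. By width it was 84.1% under 300 bp and 0.721% from 5000 bp, where 8 of 1109 peaks are members. A wider peak has more bases that can touch a partner, so the rule itself ties membership to width.

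**Figure D1:**
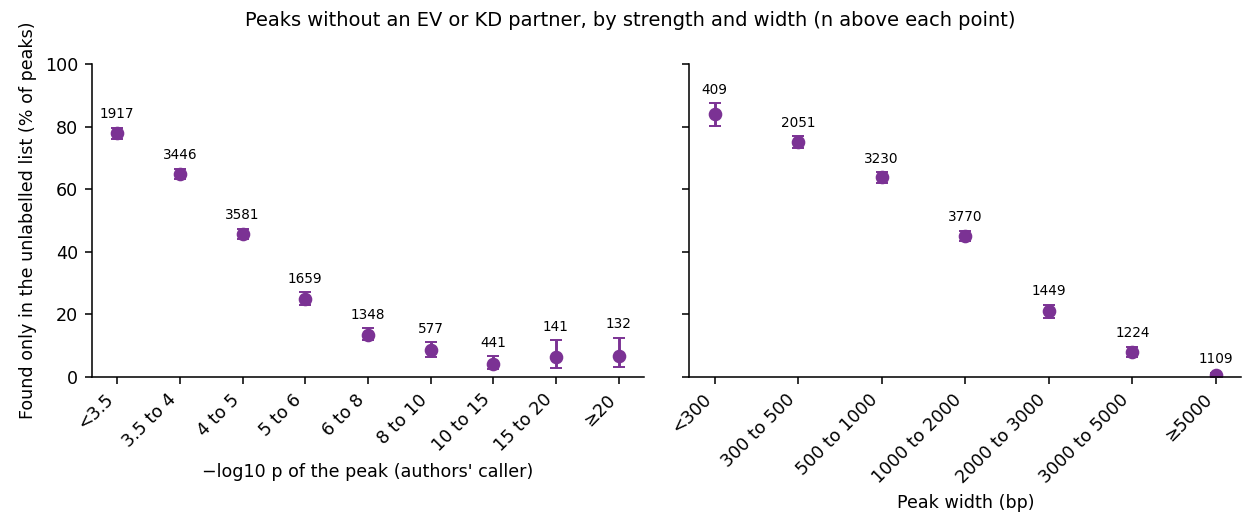
Share of the peaks of the unlabelled list that lack an EV or KD partner, by −log10 p (left) and by width in bp (right), with exact 95% intervals and the number of peaks above each point. The share falls from 77.9% in the weakest bin to 4.31% between 10 and 15 and is 6.82% in the strongest, and from 84.1% to 0.721% from the narrowest to the widest. The fall with width follows in part from the rule, since a wider peak can touch a partner more easily.

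The most frequent pair of values, 3.16-fold with a −log10 p of 3.45, stood on 551 members (9.09%) and on 77 peaks with a partner (1.07%). Peaks that repeat one pair of values exactly cannot be ranked against each other. A −log10 q of at least 2 was reached by 1383 members (22.8%) and by 64.8% of the peaks with a partner. At the border of the rule, the 3 members nearest to another list lay 1 or 2 bp from it, on chromosomes 11 and 2, with −log10 p of 3.35, 7.16 and 3.36. The 3 peaks kept out by the least overlap shared 1 or 2 bp, on chromosomes 1, 17 and 5, with 3.83, 5.14 and 4.99. Within 100 bp of the border lay 115 members and 158 peaks with a partner.

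Many members were neighbours of peaks in the other lists. An EV or KD peak lay within 1 kb of 670 members (11.1%) and within 10 kb of 2586 (42.7%). The median gap was 17.6 kb to the nearest EV peak and 58.3 kb to the nearest KD peak. To the nearest other member it was 34.02 kb, and to the nearest peak of the same list with a partner 143 kb. A gene-free stretch is taken here as 2 Mb or more without a RefSeq gene, and most centromeres lie in one. There the median gap to EV was 2.46 kb. In protein-coding genes it was 40.5 kb and between genes 34.6 kb. A nearby peak of another list and a distant one are therefore both common, depending on where the member lies.

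By midpoint, 1527 members lay in protein-coding genes (25.2%, interval 24.1 to 26.3) and 644 in long non-coding RNA genes alone (10.6%). A further 2272 (37.5%) lay between genes and 1437 (23.7%, interval 22.6 to 24.8) in gene-free stretches. Protein-coding genes span 42.1% of the chromosomes and gene-free stretches 5.87%. These lengths were taken without removing assembly gaps, unsequenced stretches where no peak can be called. Peaks of the list with a partner were arranged otherwise, with 7.76% in protein-coding genes and 75.2% in gene-free stretches. Put the other way, members were 73.3% (71.3 to 75.2) of the list's peaks in protein-coding genes and 21.03% (20.1 to 22.01) of those in gene-free stretches. This order held at every strength: between a −log10 p of 4 and 5 the shares were 72.8% and 24.6%, and at 8 or more 18.2% and 4.97%. Gene-free stretches held 35.9 EV and 34.4 KD peaks per Mb, and protein-coding genes 6.09 and 2.16. A peak in a gene-free stretch can therefore touch a partner more easily, and the split by strength does not account for this. Peaks found only in EV had 40.2% in protein-coding genes and 8.802% in gene-free stretches, and those only in KD 41.0% and 6.52%. Satellite repeats have many near-identical copies, so the position of peaks in gene-free stretches is uncertain.

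**Figure D2:**
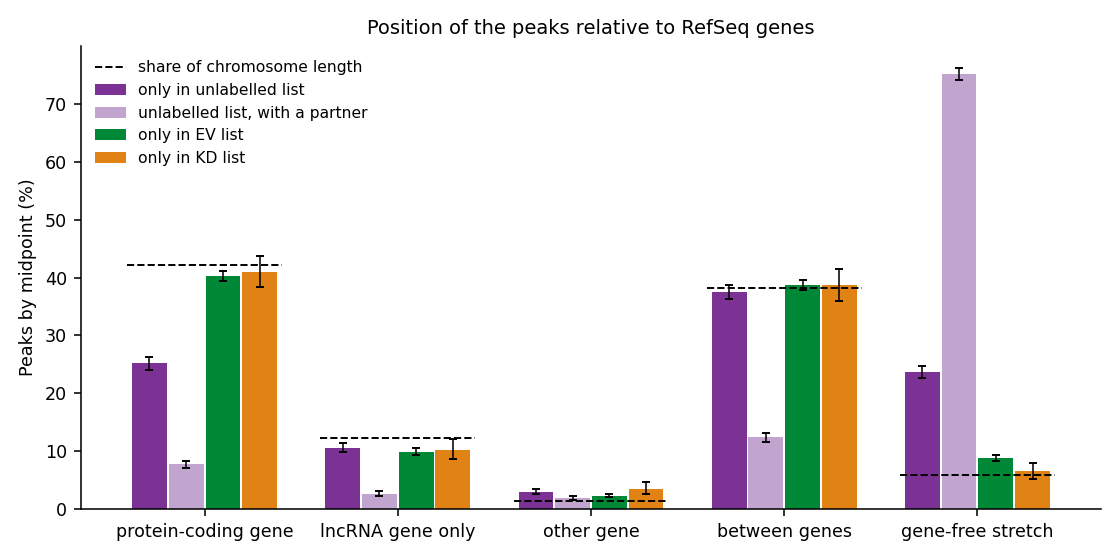
Percent of peaks by midpoint in each class of sequence for members, for peaks of the unlabelled list with a partner, and for peaks found only in EV or only in KD, with exact 95% intervals. Dashed lines mark the share of chromosome length, with assembly gaps included. Members stand between the other groups in gene-free stretches at 23.7%.

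Chromosome 19 had the highest density of members, 8.89 per Mb from 521 members, against 2.109 per Mb over all 22 chromosomes. Chromosome 21 followed with 5.25 and chromosome 22 with 4.21 per Mb. The lowest by this measure was chromosome 13 with 1.31. Lengths run to the last gene or peak end with no assembly gap removed, so the order of chromosomes with close densities is uncertain. On chromosomes 17 and 18 most members lay in gene-free stretches, 155 of 242 and 156 of 226, while on chromosome 19 these held 62. The share of the list's peaks that are members ran from 28.7% (25.5 to 31.98) on chromosome 18 to 69.8% (65.9 to 73.5) on chromosome 3. Density and share therefore order the chromosomes differently: chromosome 3 has 2.02 members per Mb.

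**Figure D3:**
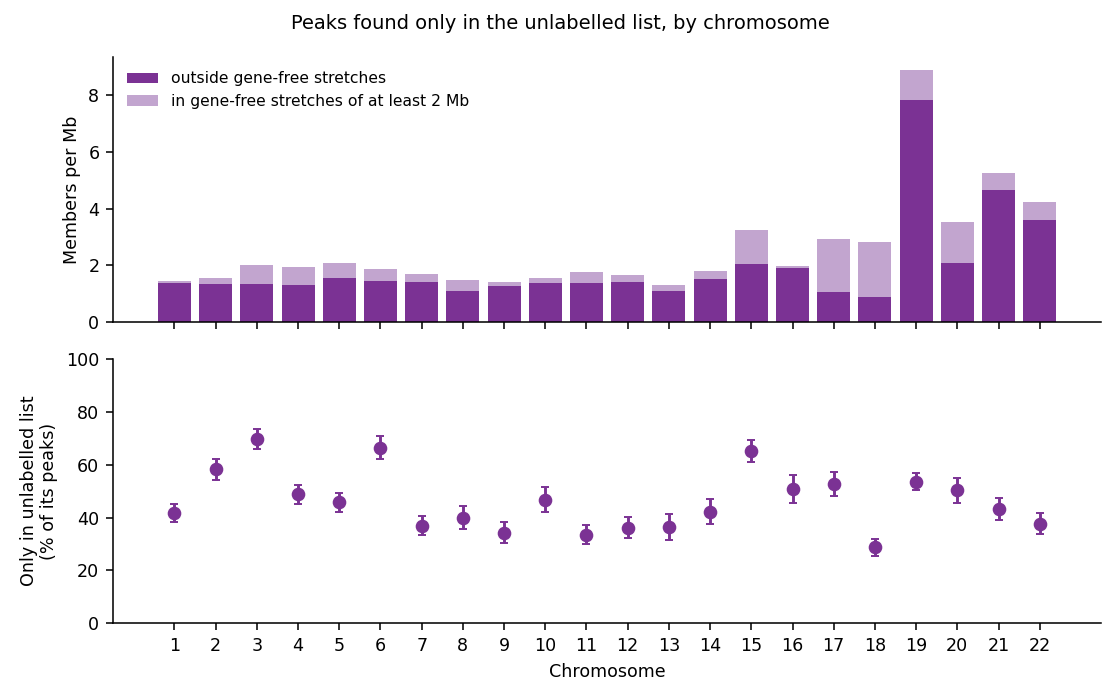
Members per Mb on each chromosome, split by whether they lie in gene-free stretches (top), and the percent of the list's peaks on that chromosome that are members, with exact 95% intervals (bottom). Chromosome 19 stands highest at 8.89 per Mb, and chromosome 3 has the largest share at 69.8%.

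Zinc finger genes of chromosome 19, many of them KRAB repressors that silence transposable elements, held more members per length than other genes. Of 250 such genes, 111 (44.4%) had a member in the gene body, against 1095 of 19122 protein-coding genes (5.73%). Any peak of the unlabelled list was found in 7.18% of protein-coding genes, an EV peak in 24.4% and a KD peak in 11.3%. The zinc finger genes have a median length of 23.3 kb and all protein-coding genes 24.5 kb. Their bodies held 26.2 members per Mb, all protein-coding genes 1.28, and the other 1201 protein-coding genes of chromosome 19, a group added after the values were seen, 1.22. These members had a median −log10 p of 3.64 against 3.76 over all protein-coding genes, and 20 of the 186 reached a −log10 q of 2. Of the list's 254 peaks in these genes, 73.2% (67.3 to 78.6) are members, near the 72.8% of all protein-coding genes. The EV list had 354 peaks and the KD list 76 in the same bodies. Most of the marked genes were also marked elsewhere in EV: 90 of the 111 held an EV peak, 34 a KD peak, and 19 neither. Of the 1095 protein-coding genes with a member, 389 (35.5%) held neither, a larger share. Over all 250 zinc finger genes, 158 held an EV peak and 64 a KD peak. Zinc finger genes are repeated copies with similar sequence, so reads can be placed wrongly among them.

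ZNF676 held the most members of any zinc finger gene. Its body spans chr19:22179089-22260304 and contains 8 members, with −log10 p from 3.59 to 4.02 and widths from 284 to 1493 bp. They covered 7.92% of the gene. EV had 1 peak there, over 0.703%, and KD none. A stretch from chr19:22184127 to 22263255 with 9 members contained no EV and no KD peak.

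Several zinc finger genes carried members and no peak of the other lists within the gene body. ZNF256 had 2 members over 22.5% of its body, ZNF350 had 3 over 15.8%, ZNF471 had 3 over 14.95%, and ZNF441 had 2 over 14.99%. In ZNF350 the members had −log10 p of 4.09, 3.64 and 3.91 and lay at least 36.9 kb from any EV peak. Those of ZNF471 had 4.56, 3.55 and 3.76 and lay at least 28.5 kb from any EV peak. EV peaks were closer to the other genes, at 2.19 and 5.45 kb from the members of ZNF256. For ZNF441 the gaps were 3.60 and 16.3 kb. Other genes alternated between lists: ZNF547 had 19.7% of its body under 3 members and 4.18% under an EV peak, with gaps of 0.336, 0.368 and 4.26 kb. On other chromosomes, 54 of 255 zinc finger genes (21.2%) had a member, at 5.799 per Mb. ZNF26 on chromosome 12 had 6 members over 13.2% of its body, beside 4 EV peaks over 10.8% and no KD peak. ZNF454 on chromosome 5 had 5 members over 10.9%, beside 17.8% in EV and 3.797% in KD.

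Outside zinc finger genes, several genes with many members were long. DSCAM, a neuronal cell adhesion gene, had 23. SHANK2, a scaffold of excitatory synapses, had 12. SDK1, an adhesion gene, and PTPRN2, a receptor phosphatase of secretory vesicles, had 9 each. Long genes offer more room, since a member was found in 40.3% of genes of at least 300 kb and in 0.62% of those under 10 kb. Members per Mb were similar across length classes, from 1.19 to 1.501. DSCAM with 27.5 per Mb, SHANK2 with 15.3 and PTPRN2 with 8.58 stood above that range. These genes were named because they hold the most members, so a high density follows largely from that choice and is a description only.

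DSCAM spans chr21:40010999-40847158, with 23 members among 24 peaks of the unlabelled list, 10 EV peaks and 4 KD peaks. The members' −log10 p ran from 3.29 to 4.73 with a median of 3.70, and their widths from 292 to 2355 bp. They covered 1.94% of the gene, against 1.08% under EV peaks and 0.2501% under KD peaks. Of the 23, 1 reached a −log10 q of 2. The nearest EV peak lay at a median of 46.9 kb and up to 119.9 kb away. A group of 6 between 40569430 and 40653727 had no EV or KD peak among them. In SHANK2, chr11:70467854-71253234, all 12 peaks of the list are members, beside 2 EV peaks and no KD peak. PTPRN2 was different, with 9 members among 44 peaks of the list, 127 EV peaks and 78 KD peaks. There the median gap to EV was 1.03 kb, so its members lay among peaks of the EV list.

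**Figure D4:**
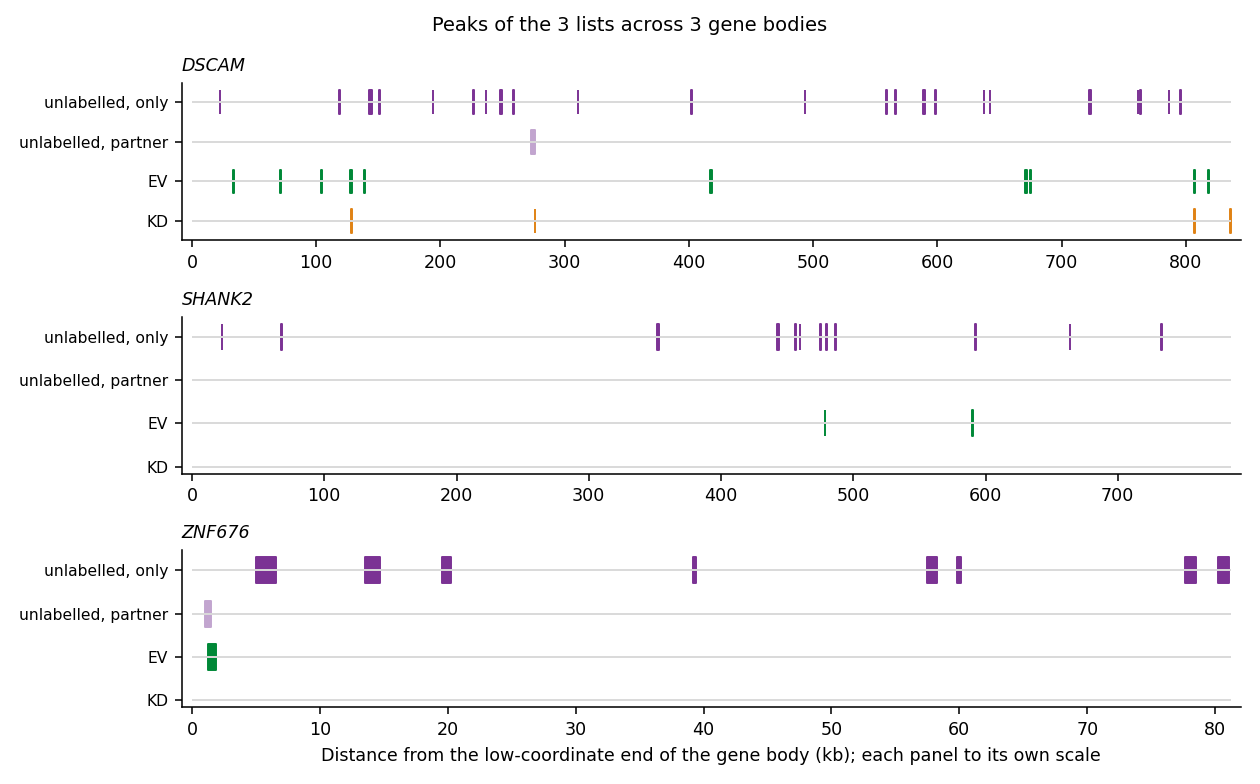
Peaks along DSCAM, SHANK2 and ZNF676, as distance in kb from the low-coordinate end of each gene body, with rows for members, peaks of the unlabelled list with a partner, EV and KD. Each gene holds many members (23, 12 and 8) and fewer EV peaks (10, 2 and 1), and KD peaks are drawn in DSCAM alone (4).

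Genes of other roles had fewer members. ADAMTS2, a procollagen peptidase, had 7 members over 4.36% of its body, with −log10 p from 3.49 to 6.17. COL23A1, a transmembrane collagen, had 7, the strongest 5.42-fold enriched with a −log10 p of 8.72. SPATA31A7, of a testis gene family with near-identical copies, had the largest covered share of any gene of at least 5 kb, 32.2% under 1 member of 2011 bp with a −log10 p of 4.19, and its value is uncertain for that reason.

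Among 48 long synaptic and adhesion genes 31 held a member, at 1.45 members per Mb, and among 40 ion channel genes 13, at 1.39, both near the 1.28 of all protein-coding genes. Of 372 solute carrier genes 29 (7.796%) had one, near the 5.73% of all protein-coding genes, and of 45 ADAM and ADAMTS genes 9. Of 53 clustered protocadherin genes 25 had a member, but these genes overlap and shared 2 members in all, of −log10 p up to 3.93. The same bodies held 49 EV and 43 KD peaks. Genes of the H3K9me3 machinery had a member in 2 of 25, also near that share: KDM4C, a demethylase of this mark, and EHMT1, an H3K9 methyltransferase, with −log10 p of 3.51 in each. Germline genes had 3 of 29 (10.3%): BOLL, TDRD5 and SYCP1.

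Several groups of mostly short genes held no member, where 5.73% of all protein-coding genes and 0.62% of those under 10 kb had one. No member lay in any of 39 HOX genes, 49 histone genes of chromosome 6, 73 ribosomal protein genes, 94 keratin-associated genes, 50 keratin genes, 28 taste and vomeronasal receptor genes, 24 kidney and neural genes or 23 housekeeping genes. A count of 0 of 39 allows a share of up to 7.69% and 0 of 94 up to 3.19% (3 counts of the total, counting error only). The whole unlabelled list also had no peak in the HOX, histone, ribosomal protein, keratin-associated, keratin, taste and vomeronasal receptor, and kidney and neural genes, so these zeros are not particular to the members. The median HOX gene is 3.785 kb long. The EV list had a peak in 5 HOX genes and 9 histone genes, the KD list in 6 and 5. Of 79 forkhead, SOX and T-box genes, 2 had a member, TBX15 and FOXN3, against 27 in EV and 23 in KD. A member lay in 2 of 389 olfactory receptor genes, which encode the odorant receptors of the nose. Of 23 cadherin genes 5 had a member, of 56 cytochrome P450 genes 1, of 68 NBPF, GOLGA and USP17L genes 2, of 28 immune genes 1 and of 22 UDP-glucuronosyltransferase genes none.

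**Figure D5:**
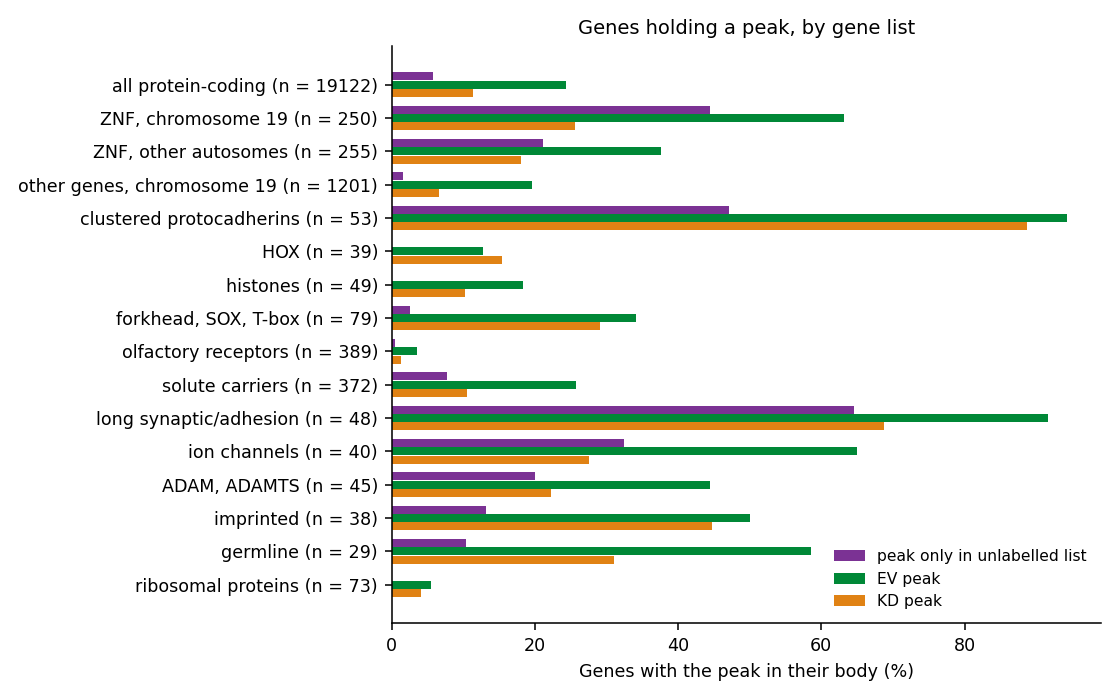
Percent of the genes of each list that hold a member, an EV peak or a KD peak in their body, with the number of genes. Zinc finger genes of chromosome 19 reach 44.4% for members against 5.73% of all protein-coding genes, and the HOX, histone and ribosomal protein genes have none.

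Imprinted genes held members at a few places. Of 38 such genes, 5 had a member (13.2%, against 5.73% of all protein-coding genes), with 11 members in all. An EV peak was found in 19 of the 38 and a KD peak in 17. ZIM2, an imprinted gene of chromosome 19, held a group of 6 between chr19:56780966 and 56831054 that contained no EV or KD peak. Of these, 4 also lie in PEG3, a paternally expressed gene that overlaps ZIM2. The 6 members' −log10 p ran from 3.32 to 4.03, and both lists had 1 peak elsewhere in PEG3. The fifth gene was SNRPN, whose region overlaps SNHG14, the host transcript of the Prader-Willi locus. SNHG14 held 9 members, 21 EV peaks and 3 KD peaks, and its strongest members had −log10 p of 5.26. KCNQ1OT1, the long non-coding RNA of the KCNQ1 domain that the study's KD refers to, held 2 members. The first lay at chr11:2633639-2634649, enriched 3.55-fold with a −log10 p of 4.09 and gaps of 4.41 kb to EV and 4.93 kb to KD. The next lay at chr11:2637875-2638848, enriched 3.12-fold with 3.397, 0.212 kb from an EV peak. Both lie inside KCNQ1 as well, and are the only peaks of the unlabelled list in either gene.

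Among non-coding genes, the pseudogene LOC100420587 on chromosome 19 had the most members, 15 in 292 kb, with 2 EV peaks and no KD peak. LINC02663, a long non-coding RNA gene on chromosome 10, had 6 members, no EV peak in its body and 1 KD peak, and its members were at least 109 kb from EV. FAM30C on chromosome 15 had 6 over 12.5% of its body.

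Strong members were few and lay in a few places. A −log10 p of at least 10 was reached by 37, of which 26 lay in gene-free stretches, 14 of them on chromosome 17 and 7 on chromosome 4. The stretch of chromosome 17, chr17:22705637-26981691, had 155 members among 332 peaks of the list, with 258 EV and 102 KD peaks. It held the highest fold enrichment of any member, 11.2, at chr17:23656688-23658884, with a −log10 p of 20.7. The member at chr17:25688270-25693038 had 10.7 and 22.99 and lay 37.3 kb from the nearest EV peak.

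The ribosomal RNA genes on the short arm of chromosome 21, which code for the RNA of the ribosome and lie in repeated arrays, held 4 further members of this strength. The highest −log10 p of all members, 31.04, was at chr21:8256582-8257024, over the pseudogene RNA5-8SP10. Members at chr21:8392666-8395822 and chr21:8396977-8401672 covered parts of RNA45SN3, with −log10 p of 26.6 and 26.9 and fold enrichments of 3.57 and 3.801. The fourth, over RNA18SP5, had 19.2. KD peaks lay between 1.06 and 2.52 kb from these 4, and EV peaks between 0.954 and 6.804 kb. The copies are near-identical, so the placement of reads is uncertain.

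Other strong members lay outside gene-free stretches and the ribosomal RNA genes named above. Whether they lie over repeated sequence was not analysed, so the placement of their reads is uncertain too. The member at chr20:55945065-55945583, between genes with CBLN4 the nearest protein-coding gene, was enriched 10.9-fold with a −log10 p of 25.4 and lay 38.6 kb from EV. The member at chr4:131201318-131202204 had 9.75 and 18.6 and lay 419.98 kb from the nearest EV peak and 420.05 kb from the nearest KD peak. Inside HFM1, a meiotic helicase gene, a member of 284 bp at chr1:91387244-91387527 had a −log10 p of 26.96, with the nearest EV peak 60.4 kb and the nearest KD peak 54.6 kb away. Just under this strength, in B4GALNT3, a glycosyltransferase gene, the member at chr12:529041-530254 had a −log10 p of 9.75 and lay 126 kb from EV.

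The widest member covered 9749 bp at chr14:16265450-16275198, and the next 9470 bp at chr22:13131710-13141179, both in gene-free stretches. The widest between genes had 5451 bp, at chr10:85355919-85361369, a −log10 p of 4.18 and no EV or KD peak within 466 kb. Members also came in runs. Joining members at most 50 kb apart gave 149 runs of at least 5, with 1842 members (30.4%), and 62 of these runs lay wholly in gene-free stretches. The longest had 116 members over 1952 kb at chr15:17515819-19468002, among 130 EV peaks and 81 KD peaks. EV and KD peaks were both absent from 12 runs. Among them were the runs in ZNF676, SDK1 and at PEG3, and the run of 6 members in DSCAM. The runs of 13 and 8 members that reach into DSCAM held both EV and KD peaks.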

How the data were processed

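H3K9me3 peaks of HEK293T cells were read from 3 deposited lists. Reads were aligned with Bowtie2 and broad peaks called with MACS2 on GRCh38, per the submitters' processing notes. The sources used here give no versions, options, filters or control libraries. Fold enrichment (a ratio over the caller's background), −log10 p, −log10 q and a score per peak are the authors' deposited values. The score was not used, and the others describe peaks within one list only. The lowest −log10 q in the unlabelled list is 1.02.

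Overlap (at least 1 bp), gaps and gene context were computed in Python 3.11.15 with pandas 2.3.3, numpy 2.4.6 and scipy 1.17.1, from 56752 RefSeq genes on chromosomes 1 to 22. The overlap step was checked on simulated data made from the 13242 peaks: it recovered 100% of 3000 placed overlaps and matched bedtools 2.31.1. Gene lists were matched on current symbols. Chromosome length is the last gene or peak end, with no assembly gap removed.

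The regions, gene lists and rule for named genes were chosen with earlier results of these data known. That rule takes the strongest, highest and widest members, the genes with most members or the largest covered share, up to 4 genes per list, and gene starts under a member. The text gives a selection, and some genes it would name are not reported here. DPPA5, DMRT2, ZNF433, SNRPN, and the comparison with other chromosome 19 genes fall outside that rule and were chosen after their values were seen. Alternatives were other overlap rules, thresholds, merging, equal peak numbers, and other chromosomes or partner lists.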

Additional observations from a re-analysis of the deposited data

Results flagged for a closer look

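Peaks of the unlabelled list outside chromosomes 1 to 22 also lacked partners, and were set aside because the definition of members leaves them out. On chromosome X, 874 of 1065 peaks (82.1%) overlapped no EV or KD peak, against 45.8% on chromosomes 1 to 22. On chromosome Y these were 28 of 55, and whether the reads there come from a Y chromosome was not tested. On sequences outside the chromosomes they were 346 of 853 (40.6%). No control list was used for these counts.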

How the results depend on the processing

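No paired analysis was possible because each group has 1 list and no result comes from a test. The main values are 6061 members, 45.8% of the list, 5.605 Mb, 25.2% in protein-coding genes and 23.7% in gene-free stretches. Values outside 1.5 times (number, Mb) or the 95% interval (shares) follow in that order. Reciprocal overlap of at least 50% gave 9914, 74.9%, 15.5 Mb, 18.4% and 43.7%. A −log10 q of at least 2 in all lists gave 1713, 28.4%, 2.12 Mb, 16.99% and 46.6%. The same limit on the unlabelled list alone, chosen after seeing the data, gave 1383, 22.9%, 1.49 Mb, 19.2% and 40.998%. The KD list alone as partner gave 62.6% of the list, 9.09 Mb, 21.2% and 35.2%, and the EV list alone 47.1% of the list. A partner within 1 kb gave 40.7%, 26.5% and 19.97% for the 3 shares. Merging within 3 kb gave 51.9%, 28.4% and 15.2%, and equal peak numbers 50.6%, 22.95% and 30.3%. With X and Y they were 48.5%, 22.99% and 28.3%. A fold enrichment of at least 3 gave 53.6% of the list and 22.5% in gene-free stretches. The cause of these shifts was not tested. Stricter limits leave fewer peaks in the lists. In 2 further checks added after the data were seen, members with a −log10 q of at least 2 were found in 19 of 250 zinc finger genes of chromosome 19 and in 262 of 19122 protein-coding genes. Members more than 1 kb from any EV or KD peak were found in 105 and 1055. Depth is unknown, so peaks near the calling threshold limit every count.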
